A study of Mus musculus with 12 samples.

Results

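The genes described here are 10 transcripts that mark natural killer (NK) cells and cytotoxic T cells, matched by symbol to the array's Entrez gene features: Klrd1, Klrk1, Ncr1, Klrb1c, Prf1, Gzma, Gzmb, Nkg7, Ccl5 and Eomes. The rule names these genes by symbol, and the list was drawn up with earlier results of these data known. All 10 were measured, among 27381 features in all.

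Blood of mice labelled C57B16/J, which the paper writes as C57Bl6/J, was profiled on 12 Affymetrix Mouse Gene 2.0 ST arrays. There were 3 arrays in each of 4 groups: untrained before the training period (untrained pre), untrained after it (untrained post), trained before it (trained pre) and trained after it (trained post). Trained mice learned to answer a visual cue for water while held by the head above an air-floated ball, and their untrained controls were handled alike but received water at random times. Every array carried RNA pooled from 7 mice and depleted of globin transcripts. Surgery was done at 8 to 12 weeks of age and followed by 7 days of recovery, and water deprivation and head fixing came after it in both the trained and the untrained mice. Replicates 1 and 2 of each group form batch 1 and replicate 3 forms batch 2, a repeat of the experiment. The first blood was drawn from a sinus of the skull at surgery under anaesthesia and the final sample was blood from the trunk after decapitation. Age, collection site, surgery and water restriction therefore differ between pre and post and cannot be told apart from the effect of time. The labels count 16 males and 18 females, 34 mice in all, where separate pools would need 21 mice per group. The paper's methods describe more animals and distinct pools, so the sources do not settle whether any pools share mice, and p-values here rest on the variation among pools. The paper also describes trained and control mice as same-sex littermate pairs, bled before and after training. No label links a pool to its mice, so neither pairing could be modelled and pools were fitted as independent. A pool also averages over its mice, so that no value below shows how individual mice differed.

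NK cells are innate lymphocytes that recognise stressed, infected or transformed cells through a balance of activating and inhibitory receptors and kill them by releasing granules. Perforin opens the target's membrane to granzymes, which are proteases that start its death, and cytotoxic CD8 T cells use the same machinery. In blood both kinds of cell are a minority among leukocytes, and in whole-blood RNA fewer cells of a type and less RNA per cell cannot be told apart.

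The members fall into 4 roles. Klrd1 (CD94) pairs with NKG2 chains to bind the class I molecule Qa-1, Klrk1 (NKG2D) and Ncr1 (NKp46) are activating receptors, and Klrb1c is NK1.1, the antigen by which NK cells are commonly stained in this strain. Prf1 (perforin), Gzma and Gzmb (granzymes A and B) and Nkg7 (a membrane protein of cytotoxic granules) make up the killing apparatus. Ccl5 (RANTES) is a chemokine stored and released by cytotoxic lymphocytes, and Eomes is a T-box transcription factor needed for the maturation of NK cells. Klrd1, Klrk1, Nkg7, Ccl5 and the granzymes are also made by cytotoxic T cells, and Ccl5 by platelets. The Klr genes and the granzymes belong to families of similar sequence, and whether probes separate every family member was not examined.

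A RefSeq promoter window of assembly GRCm38.p6, from 250 bases before to 50 bases after the annotated start, was at hand for 8 of the 10 members (all but Klrd1 and Ccl5). The stretch around a RUNX word, TGTGGT on either strand, is shown because it was the word that most of these windows shared: 7 of the 8 genes held it, in 9 places, against 16.8% of all 32851 windows and 18.9% of genes. RUNX factors, among them Runx3, act in the development of cytotoxic lymphocytes. Each line gives the position of the printed bases, then the strand and the distance of the word's first base from the start, and the sequence runs 5′ to 3′ along the gene's own strand with the word in capitals, as TGTGGT or as its reverse complement ACCACA.
Klrk1, chr6:129623978-129624003, minus strand, at -129: atagctgtgcTGTGGTtgtgtggggg
Klrb1c, chr6:128788715-128788740, minus strand, at -89: gaaggaaagcTGTGGTcatggtgttt
Ncr1, chr7:4337529-4337554, plus strand, at -176: agatccaaaaTGTGGTtaaatgtgtt
Ncr1, chr7:4337664-4337689, plus strand, at -41: ggcctcacccACCACAtcctgtgcat
Nkg7, chr7:43437045-43437070, plus strand, at -83: gcccacccctACCACAtaggaggaga
Prf1, chr10:61297696-61297721, plus strand, at -130: ggaacctgtgACCACActctgggggc
Gzma, chr13:113101016-113101041, minus strand, at -50: gaagaacaaaACCACAtcctttgcac
Gzmb, chr14:56262412-56262437, minus strand, at -93: cctatgccctTGTGGTcttgccctgg
Gzmb, chr14:56262353-56262378, minus strand, at -34: tgggttctgcTGTGGTtacttcatga
Ncr1 has a second annotated start 9 bases further on, and its distances here are from the first. In the Eomes window the word did not occur on either strand.

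Nkg7 had the largest difference after training among the members, and its window also held a T-box word, AGGTGTGA, close to the start. T-box proteins such as Eomes and Tbx21 bind sequences of this kind. The 250 bases before its start (chr7:43436888-43437137, plus strand) are shown with the RUNX word and the T-box word in capitals.
Nkg7: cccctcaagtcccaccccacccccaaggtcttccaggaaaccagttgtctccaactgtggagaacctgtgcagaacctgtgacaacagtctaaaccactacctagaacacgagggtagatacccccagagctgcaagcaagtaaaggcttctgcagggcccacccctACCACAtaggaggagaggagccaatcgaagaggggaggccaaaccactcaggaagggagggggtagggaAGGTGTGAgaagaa
That longer T-box word was found in 1 of the 8 genes, against 1.48% of all genes with a window. Its core GTGTGA, which lies inside it, was found in 3 (Ncr1, Gzmb and Nkg7), against 16.4%. The STAT word TTCCNGGAA stood in 1 (Nkg7), against 1.35% of genes, and the ETS word GGAAGT in 2 (Klrb1c and Prf1), against 26.5%. These 5 words were searched on both strands after the expression values had been seen. A match describes letters only and is neither evidence of binding nor linked here to any value below.

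Values are log2 intensities as deposited, and triplets run in the order of replicates 1, 2 and 3. Array medians lay between 1.436 and 1.519 and Pearson's r between arrays, across features, was 0.947 to 0.978. Means of the members over the 12 arrays ran from 1.55 for Eomes to 5.47 for Ccl5, and none was below 1.47, the median of the feature means. Gzmb (1.61) and Eomes lay close to it, and no detection call was used, so the size of their differences is uncertain. Signal differs between probe sets for reasons other than abundance, so levels are compared between groups within a gene and not between genes.

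When the 4 group means of a gene were put in order, the ranges of neighbouring groups overlapped in every case but 1, that of Nkg7, in which untrained pre (4.50 ± 0.40, SD, n = 3) and untrained post (3.54 ± 0.48, SD, n = 3) did not. Untrained post had the lowest mean for Klrd1, Klrk1, Ncr1, Klrb1c, Prf1, Gzma, Nkg7 and Ccl5. Gzmb and Eomes had theirs in untrained pre.

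**Figure D1:**
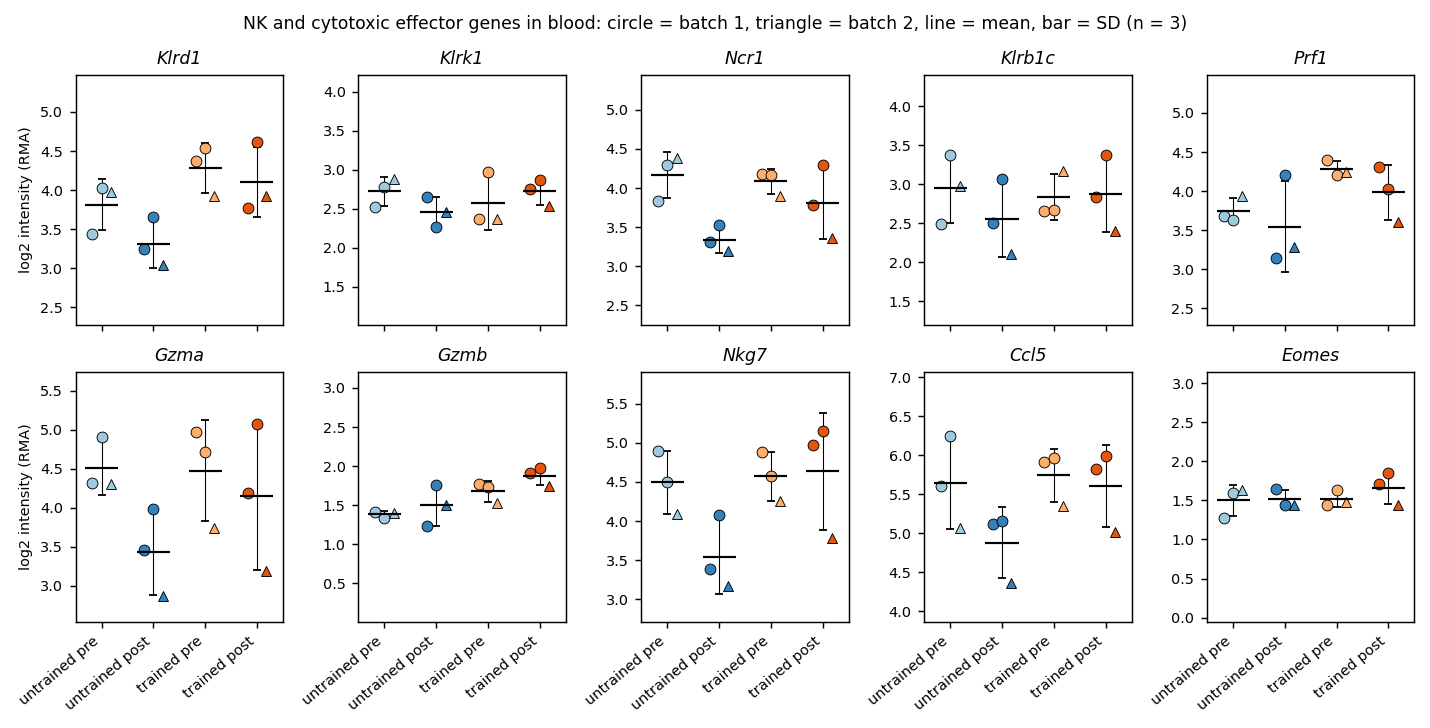
Log2 intensity of the 10 genes in every array (y axis, each panel spanning the same log2 range around the gene's mean) by group (x axis), with circles for batch 1, triangles for batch 2, a line at the group mean and a bar of ± SD (n = 3). Nkg7, Ccl5, Gzma and Ncr1 sit lower in untrained post than in the other groups, while Gzmb and Eomes stay within narrow ranges of 1.23 to 1.98 and 1.27 to 1.85.

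The first comparison asked how trained and untrained mice differed after training. All 10 members had a higher mean in trained mice, with a median difference of 0.45 log2, against -0.01 over all features, of which 46.7% were higher. Nkg7 was 2.13-fold and Ccl5 1.66-fold higher by the fitted means. None of the 10 passed limma's test after adjustment over all features, nor did any other feature (0%), and at an unadjusted p under 0.05 the count of members was 6 (Klrd1, Ncr1, Gzma, Gzmb, Nkg7 and Ccl5), against 3.03% of all features in that direction.

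Among the receptors, Klrd1 read 3.24, 3.66 and 3.04 in untrained post and 3.77, 4.62 and 3.93 in trained post. Every trained pool was above every untrained pool, and Klrd1 was the 1 member of which that was true, against 4.84% of all features. The fitted difference was 0.79 log2 (SE 0.24, 95% interval 0.27 to 1.31, limma adjusted p = 0.703), close in both batches at 0.74 and 0.89. For Ncr1 the values were 3.31, 3.52 and 3.19 in untrained post and 3.78, 4.29 and 3.36 in trained post. The groups overlapped, because the batch 2 pool of trained mice lay below 1 untrained pool of batch 1. The difference was 0.47 log2 (SE 0.21, limma adjusted p = 0.770), and it was 0.62 in batch 1 and 0.18 in batch 2. Klrk1 and Klrb1c differed by 0.27 and 0.32 log2, with 95% intervals that included 0 (-0.13 to 0.66 and -0.33 to 0.96).

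In the killing apparatus, Nkg7 read 3.39, 4.08 and 3.16 in untrained post and 4.98, 5.15 and 3.78 in trained post. Both batch 1 pools of trained mice were above all untrained pools, and the batch 2 pool was above its own batch's untrained pool but below 1 of batch 1. The difference of 1.09 log2 (SE 0.21, 95% interval 0.62 to 1.56, limma adjusted p = 0.496) was 1.33 within batch 1 and 0.62 within batch 2. Gzma read 3.46, 3.98 and 2.87 in untrained post against 4.19, 5.07 and 3.19 in trained post. Its groups overlapped across batches but not within them, with a difference of 0.71 log2 (SE 0.27, limma adjusted p = 0.740) that was 0.91 in batch 1 and 0.32 in batch 2. Gzmb read 1.23, 1.76 and 1.51 in untrained post against 1.91, 1.98 and 1.74 in trained post, an overlap of a single pair of pools. Its difference was 0.38 log2 (SE 0.14, limma adjusted p = 0.727). For Prf1, 3.15, 4.21 and 3.28 in untrained post stood against 4.31, 4.03 and 3.61 in trained post, with 1 untrained pool above all but 1 trained pool. The difference of 0.44 log2 had a 95% interval of -0.09 to 0.97.

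The chemokine Ccl5 read 5.12, 5.15 and 4.36 in untrained post and 5.83, 5.99 and 5.01 in trained post. In both groups the batch 2 pool was the lowest, and within each batch the trained pools were above the untrained. The difference was 0.73 log2 (SE 0.16, 95% interval 0.39 to 1.07, limma adjusted p = 0.496), at 0.77 in batch 1 and 0.65 in batch 2. Eomes had the smallest difference, 0.15 log2 (95% interval -0.16 to 0.47), and in batch 2 its value was -0.01.

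Within batches, 7 of the 10 (Klrd1, Klrk1, Ncr1, Gzma, Gzmb, Nkg7 and Ccl5) had every trained pool above every untrained pool of the same batch, against 8.1% of all features. The median difference was 0.56 log2 in batch 1, with 10 of 10 genes higher, and 0.31 in batch 2, with 9 of 10. Pools of 1 group also moved together across genes. Trained post replicate 2 was the highest of its group for 9 of the 10 genes and replicate 3 the lowest for 9, and in untrained post replicate 2 was the highest for 8 and replicate 3 the lowest for 7. The 10 genes are therefore not 10 independent readings of the difference.

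**Figure D2:**
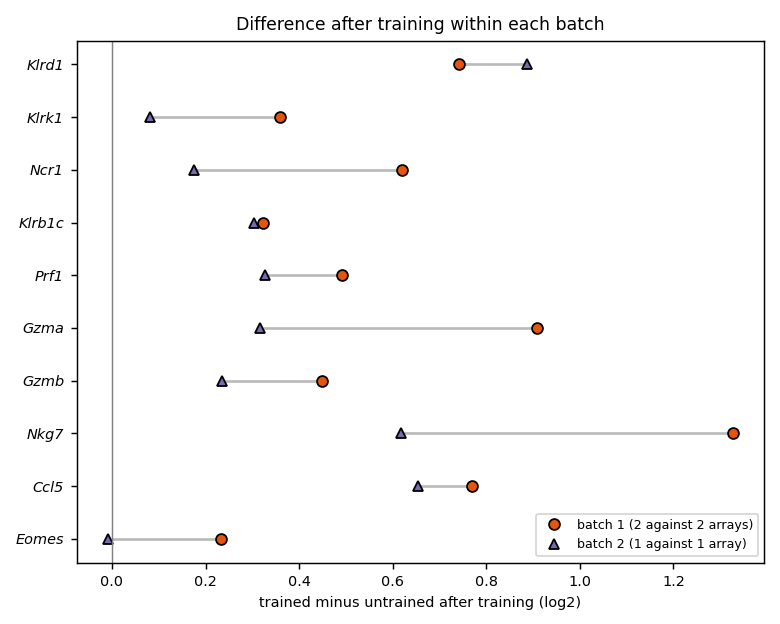
Trained minus untrained difference after training (x axis, log2) for each gene (y axis) within batch 1 (circles, 2 against 2 arrays) and batch 2 (triangles, 1 against 1 array). All values but that of Eomes in batch 2 are above 0, and Nkg7 spans 0.62 to 1.33 between the batches.

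Before training, in blood taken at surgery, most members differed less. A total of 6 were higher and 4 lower in the mice to be trained, with a median of 0.05 log2 that ran from -0.09 without untrained pre replicate 1 to 0.14 without untrained pre replicate 3, and no feature passed limma's test after adjustment (0%), with every member at 0.999. Prf1 was the 1 member with an unadjusted p under 0.05, against 4.2% of all features. Prf1 read 3.69, 3.63 and 3.94 in untrained pre and 4.40, 4.21 and 4.25 in trained pre, a difference of 0.54 log2 (SE 0.24), beside 0.44 after training. Gzmb read 1.41, 1.34 and 1.40 against 1.77, 1.73 and 1.52, a difference of 0.29 log2 (95% interval -0.02 to 0.60). For these 2 genes the trained pools were all above the untrained pools before training began, against 4.88% of all features. Nkg7 and Ccl5 differed by 0.08 log2 (95% interval -0.39 to 0.54) and 0.10 log2 (-0.24 to 0.44) before training, and Klrd1 by 0.47 (-0.06 to 0.99). In batch 1 the Klrd1 difference was 0.73 before training, beside 0.74 after it. In batch 2 it was -0.05 before training and 0.89 after it.

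**Figure D3:**
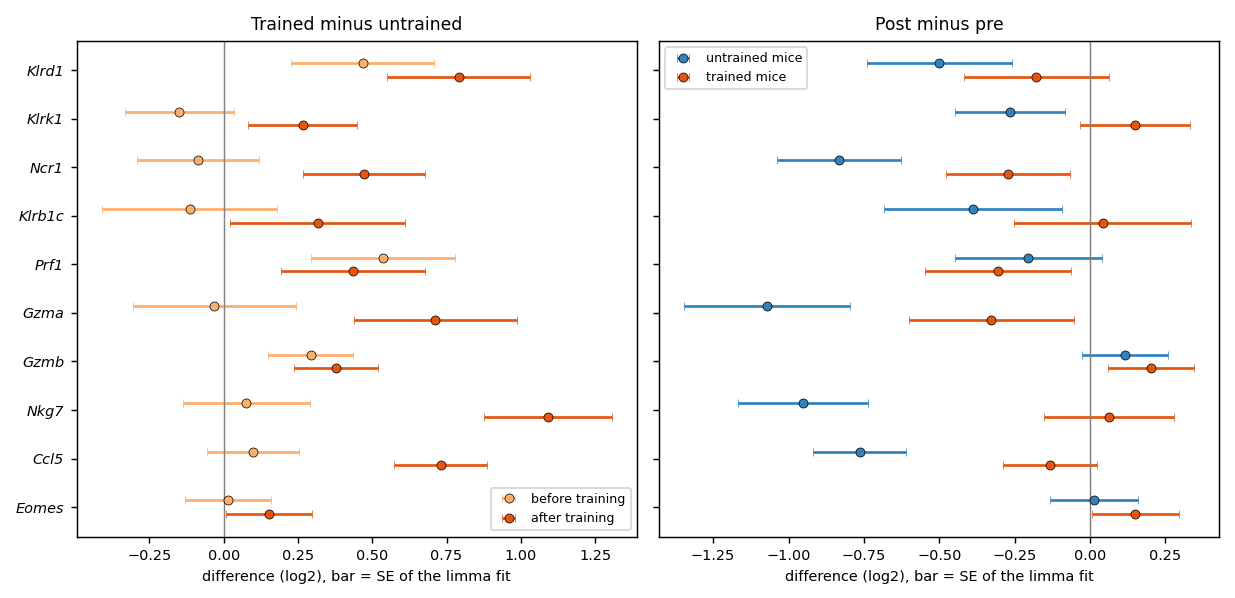
Fitted differences in log2 (x axis, bars ± SE) for each gene (y axis), with trained minus untrained before and after training on the left and post minus pre in untrained and trained mice on the right. After training all 10 points lie above 0, from 0.15 to 1.09, and on the right Nkg7, Gzma, Ncr1 and Ccl5 lie between -0.76 and -1.07 in untrained mice.

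The second question was how levels moved over the training period within each group. In untrained mice 8 of the 10 had a lower mean after the period, with a median of -0.44 log2 against 0.02 over all features. The median was -0.23 in batch 1 and -0.79 in batch 2, -0.71 without untrained pre replicate 1 and -0.28 without untrained pre replicate 3. None passed limma's test after adjustment, where 0.511% of features did as lower, and at an unadjusted p under 0.05 there were 4 (Ncr1, Gzma, Nkg7 and Ccl5), against 6.77%. The closest to the threshold was Ccl5, at an adjusted p of 0.0501.

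Ccl5 read 5.61, 6.25 and 5.07 in untrained pre, against the post values given above. The ranges overlapped by the batch 2 pool alone, and the difference of -0.76 log2 (SE 0.16), a 1.70-fold lower level, was close in both batches at -0.79 and -0.71. Nkg7 read 4.90, 4.50 and 4.09 in untrained pre and was lower after the period by -0.95 log2 (SE 0.21, limma adjusted p = 0.0700), at -0.96 in batch 1 and -0.93 in batch 2. Its lowest first value and its highest last value nearly touched, at 4.09 and 4.08. Gzma read 4.31, 4.90 and 4.31 before the period and differed by -1.07 log2 (SE 0.27, limma adjusted p = 0.102). For Ncr1, with 3.84, 4.30 and 4.38 before the period, the difference was -0.83 log2 (SE 0.21, limma adjusted p = 0.0914). Each of Gzma, Ncr1 and Nkg7 had all first pools above all last pools, so that 3 of the 10 did not overlap, against 8.43% of all features. Within batches 4 did not (Ccl5 as well), against 11%.

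The other receptors gave differences of -0.50 log2 for Klrd1, whose first values were 3.44, 4.03 and 3.98, -0.39 for Klrb1c and -0.27 for Klrk1, with 95% intervals that included 0. Prf1 differed by -0.20 log2, Gzmb by 0.12 and Eomes by 0.01.

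In trained mice 5 members were higher and 5 lower after the period, with a median of -0.04 log2, which was 0.06 in batch 1 and -0.41 in batch 2 and ran from -0.19 without trained post replicate 2 to 0.08 without trained post replicate 3. None had an unadjusted p under 0.05, against 10.4% of all features, and none passed after adjustment, against 0.281%. Trained pre values were 4.89, 4.57 and 4.25 for Nkg7, 5.91, 5.96 and 5.35 for Ccl5, 4.97, 4.71 and 3.75 for Gzma, and 4.19, 4.17 and 3.90 for Ncr1. All of these ranges overlapped with those in trained post. The difference was 0.06 log2 for Nkg7 (95% interval -0.40 to 0.53), although it was 0.33 in batch 1 and -0.47 in batch 2. It was -0.13 for Ccl5 (-0.47 to 0.21), -0.33 for Gzma (-0.92 to 0.27) and -0.27 for Ncr1 (-0.72 to 0.18). Klrd1, at 4.38, 4.55 and 3.93 before the period, differed by -0.18 (-0.70 to 0.35). These intervals include 0 and do not show that levels stayed the same.

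Over both groups together, 8 members had a lower mean after the period, with a median of -0.30 log2 against 0.01 over all features. It was -0.17 in batch 1, -0.59 in batch 2 and -0.19 without untrained pre replicate 3. Ccl5 was the member that passed, and it fell by 0.45 log2 (SE 0.11, 95% interval -0.69 to -0.21, limma adjusted p = 0.0481), 1.36-fold, with -0.41 in batch 1 and -0.53 in batch 2. That is 1 of 10 members, against 1.92% of all features called lower, and 4 had an unadjusted p under 0.05 (Ncr1, Gzma, Nkg7 and Ccl5), against 8.14%. The call for Ccl5 was lost with no batch term (adjusted p = 0.362), in batch 1 alone (0.329), with quantile normalization (0.0939) and with a trended prior (0.0966), and when any 1 of the 12 arrays other than untrained pre replicate 1 was left out (0.0658 to 0.138). Ncr1 differed by -0.55 log2 (limma adjusted p = 0.0645) and Gzma by -0.70 (0.0788). Gzmb and Eomes had values of 0.16 and 0.08.

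Whether the change over time differed between trained and untrained mice was tested by the interaction of training and time. The median over the members was 0.42 log2, with 9 of 10 above 0, and was 0.42 in batch 1 and 0.41 in batch 2, but 0.27 without trained post replicate 2 and 0.64 without untrained pre replicate 1. Nkg7 had the largest value, 1.02 log2 (SE 0.30, 95% interval 0.36 to 1.68, limma adjusted p = 0.832), with 1.30 in batch 1 and 0.45 in batch 2. For Ccl5 it was 0.63 log2 (SE 0.22, 95% interval 0.15 to 1.11, limma adjusted p = 0.850). No member passed after adjustment, against 0.00365% of all features, which is 1 feature, and 2 had an unadjusted p under 0.05 as higher (Nkg7 and Ccl5), against 2.8%. Gzma and Ncr1 had 0.74 and 0.56 log2 (both at an adjusted p of 0.886) and Prf1 -0.10. Klrd1 had 0.32 log2 (95% interval -0.42 to 1.06, limma adjusted p = 0.951), with 0.012 in batch 1 and 0.94 in batch 2. The untrained post arrays enter this contrast as well as the comparison after training and the one over time in untrained mice, so the 3 sets of values are not independent of each other.

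Markers of other blood cells moved in the same arrays. All 9 T cell markers (among them Cd3e, Cd4 and Cd8a) had a higher mean in trained mice after training, with a median of 0.29 log2, and a lower one after the period in untrained mice, at -0.40, though none was called. The mean level of that list ran from 4.17 to 4.34 in untrained pre, 3.47 to 4.16 in untrained post, 4.11 to 4.45 in trained pre and 3.59 to 4.34 in trained post. The corresponding mean of the 10 members ran from 3.35 to 3.67, 2.74 to 3.32, 3.40 to 3.72 and 3.10 to 3.92.

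All 6 B cell markers were lower after the period in untrained mice (median -1.90 log2, 4 of them called by limma, each kept in 6 to 13 of 15 tested alternatives) and higher in trained than untrained mice after training (median 0.50, none called). Their mean level ran from 6.26 to 6.44 in untrained pre, 3.89 to 4.94 in untrained post, 6.16 to 6.41 in trained pre and 4.11 to 5.78 in trained post. Monocyte markers (6 of 7 measured) had medians of -0.42 over time in untrained mice and 0.30 after training, with mean levels of 3.59 to 4.02, 3.07 to 3.73, 3.47 to 3.91 and 3.12 to 4.04 in the same order of groups. Neutrophil markers had -0.99, with 2 of 6 called (S100a8 and S100a9, kept in 4 and 6 of 15 tested alternatives), and 0.23, with mean levels of 6.29 to 6.78, 5.15 to 5.84, 6.25 to 6.76 and 4.997 to 6.13. Platelet markers had 0.24 and 0.13, erythroid markers -0.31 and -0.05, and skeletal muscle markers 0.04 and -0.33. Over time in trained mice all 6 B cell markers were lower as well (median -1.20, none called). All 6 neutrophil markers were also lower there (median -0.68), with Retnlg called, a call kept in 5 of 15 tested alternatives. Over both groups 6 B cell and 3 neutrophil markers were called lower, and 2 of 6 platelet markers were called higher. The platelet markers were Itga2b at 0.74 log2 (limma adjusted p = 0.00806) and Itgb3 at 0.69 (limma adjusted p = 0.0219). Their calls were kept in 19 and 13 of 20 tested alternatives. T cell and monocyte markers had medians of -0.18 and -0.004 over time in trained mice. Untrained pre replicate 1 stood apart for the skeletal muscle markers, with a mean deviation of 1.06 log2 against -0.48 to 0.35 in the other arrays. Without it the members called over time were 2 in untrained mice and 3 over both groups, where 147 and 866 of all 27381 features were called. Leaving out trained post replicate 3, with a muscle deviation of 0.14, also gave 2 members called in untrained mice, where 301 features were called. A link between the muscle signal and these counts was not tested. The lowest single value among the skeletal muscle markers was 0.38, and no detection call was used for any list. The part of these other cells in the members' differences was not tested.

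**Figure D4:**
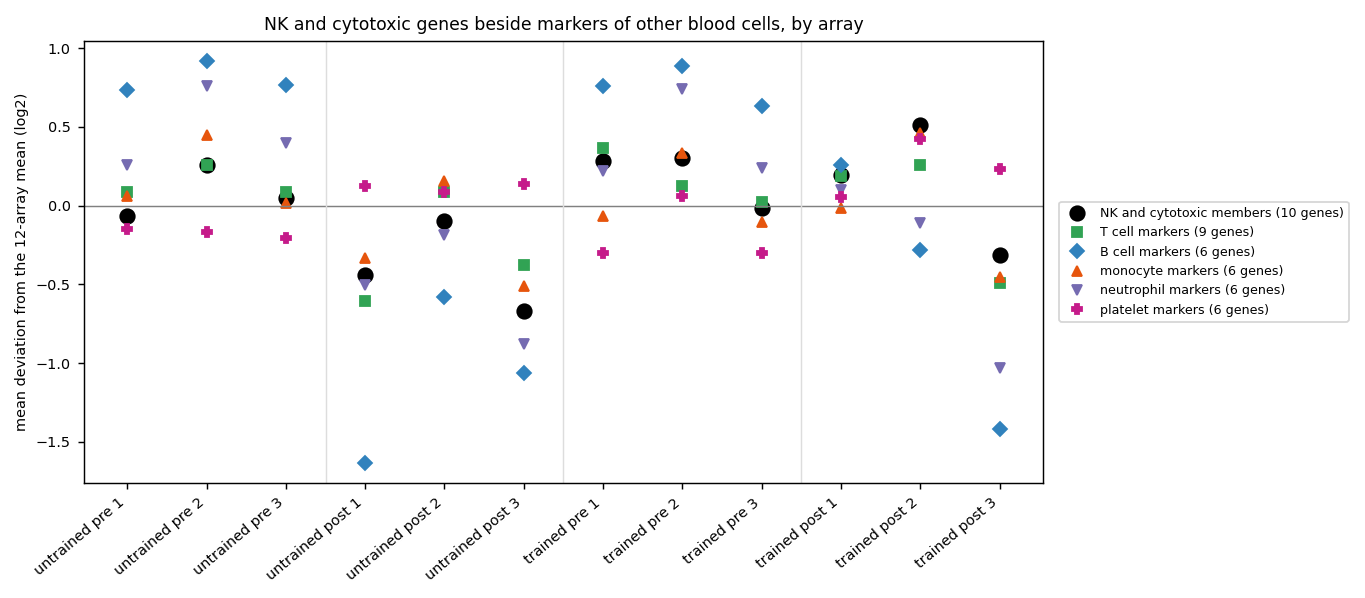
Mean deviation of each list of genes from its mean over the 12 arrays (y axis, log2) in every array (x axis, grouped by condition), with the NK and cytotoxic genes as black circles. The NK and cytotoxic genes are lowest in untrained post replicate 3 (-0.67) and highest in trained post replicate 2 (0.51), where T cell markers are at -0.38 and 0.26.

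The remaining genes of the pathway, in 7 lists by role, gave no call after training. Adaptors and proximal kinases, which carry the receptors' signals into the cell, had a median of 0.23 log2 with 7 of 10 higher, and 3 with an unadjusted p under 0.05: Plcg2 at 0.63 log2 (adjusted p = 0.649), Syk at 0.55 (0.706) and Tyrobp at 0.44 (0.723). In untrained mice 9 of the 10 were lower after the period and 2 passed limma's test. Tyrobp, which encodes the adaptor DAP12, fell by 0.84 log2 (adjusted p = 0.0313) and Plcg2, a phospholipase of receptor signalling, fell by 0.88 (adjusted p = 0.0455). These calls were kept in 4 and 5 of 15 tested alternatives, with adjusted p up to 0.140 and 0.182. Over both groups Tyrobp was also called lower, by 0.52 log2 (adjusted p = 0.0176, kept in 15 of 20 tested alternatives), and Plcg2 was not (adjusted p = 0.0965). Tyrobp and Syk are also used by myeloid cells, and Plcg2 and Syk by B cells.

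The list of genes that form, load or release cytotoxic granules or serve as death ligands had a median of 0.09 log2 after training, with 10 of 13 higher. Cst7, an inhibitor of the cathepsins that activate granzymes, was its leading member at 0.59 (adjusted p = 0.599). Over time in both groups Rab27a, a GTPase that docks granules, fell by 0.52 log2 (adjusted p = 0.0154), while the syntaxin Stx11 rose by 0.76 (adjusted p = 0.00898) and the lysosomal protein Lamp1 by 0.54 (adjusted p = 0.0192). These calls were kept in 18, 19 and 16 of 20 tested alternatives respectively. All 3 genes are active in other blood cells too, platelets included.

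The other granzymes did not share the direction of Gzma and Gzmb. After training 7 of 8 had a lower mean in trained mice (median -0.13 log2, none called), led by Gzmf at -0.59 (adjusted p = 0.599), but the mean level of the list lay between 0.84 and 1.15 in every array, below the median feature.

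Other NK receptors, 26 of 28 measured, split 15 higher to 11 lower after training (median 0.05 log2), with Klre1 at 0.47 (adjusted p = 0.766) and Klrb1a at 0.33 (0.773). Klre1 and Klrb1a had mean levels of 1.36 and 0.85, below the median feature. Over time in both groups Cd226, an adhesion receptor that platelets carry as well, rose by 0.72 log2 (adjusted p = 0.0439, a call kept in 8 of 20 tested alternatives). Transcription factors of NK cells, 9 of 10 measured, had a median of 0.01 log2 after training, and Irf2 fell by 0.49 over time in both groups (adjusted p = 0.0360, kept in 9 of 20). Of 13 cytokines and cytokine or homing receptors, 6 were higher after training (median -0.02 log2), led by Il18rap, a chain of the interleukin-18 receptor, at 0.41 (adjusted p = 0.736). The fractalkine receptor Cx3cr1, borne by mature NK cells and by monocytes, fell by 0.59 over time in both groups (adjusted p = 0.0323, kept in 10 of 20). Ligands and receptors of the members, 11 of 15 measured, had a median of 0.05 log2 after training and no call in any of the 6 contrasts. In untrained mice Clec2d, a ligand of an NKR-P1 receptor, differed by -0.92 over time (adjusted p = 0.181) and H2-T23, which encodes Qa-1, the ligand of Klrd1's complexes, by -0.62 (0.220).

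The genes whose profile lay nearest to the mean profile of the 10 members were Arpc5, Hadh, Ppp2r5a, Erap1, Pik3cg, Nrbp1, Ywhab and Dctn5. Likeness was the root mean square distance between profiles centred on their own means over the 12 arrays, among named features at or above the median level, and it ran from 0.13 log2 for Arpc5 to 0.15 for Dctn5. The mean profile itself had an SD of 0.34 log2 over the arrays. The members' own distances were larger, from 0.19 for Ncr1 to 0.39 for Gzma, and of 13671 features compared 54 lay nearer to the mean profile than Ncr1 did. Among pairs of members Klrk1 and Eomes, both with little spread, were closest at 0.15, and Gzma and Gzmb were farthest apart at 0.66.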

How the data were processed

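RNA of 12 blood pools was hybridised to 1 array each. The deposited values are log2 intensities per Entrez gene, which the authors made by Robust Multiarray Average with Brainarray gene definitions (affy 1.62.0 under R 3.6.0, per the submitters' processing notes). Any adjustment for batch made before that is not given in the sources that were used here. The 12 arrays and 27381 features were used unfiltered. Symbols came from the platform's annotation, which named 26794 features, and for the rest from RefSeq where it held one.

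Groups and batches were taken from the labels. A linear model of 4 group means plus batch was fitted to every feature and moderated by eBayes (limma 3.58.1, R 4.3.3), which left 7 residual degrees of freedom. For each of 6 contrasts, two-sided p-values were adjusted over all features by Benjamini-Hochberg, and those under 0.05 were called. A median over the members is a description. The number of arrays limits the precision.

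The members and lists were chosen with earlier results of these data known. All 10 members were named, with values per array for those at an unadjusted p under 0.05 in a contrast. From each of 7 pathway lists at most 4 genes per contrast were eligible, those that passed first and then those with the smallest p, and the text gives part of them. Promoter sequences came from RefSeq (GRCm38.p6). Alternatives were no batch term, a replicate block, the compared arrays only, either batch alone, a filter that kept features with a mean not below the median, quantile normalization, centring on array medians, a trended prior, array weights and each array left out. The fit was also run on simulated arrays with independent noise and no batch effect. That run cannot show how the fit handles batches or genes that move together.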

Additional observations from a re-analysis of the deposited data

How the results depend on the processing

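Of 1060 values of member differences under the alternatives, 964 were classed as unchanged and 49 changed direction. Unchanged meant the same direction and side of the threshold. In batch 2 alone, which had no test, it meant the same direction and a value within 0.28 log2. With no batch term, a replicate block, the compared arrays only, the filter or the trended prior, the design fixes each difference, so no direction could change. Of the 60 main results 1 was called, so most values kept their side by staying uncalled. After training no member was called in any alternative and the differences of Nkg7 and Ccl5 stayed between 0.62 and 1.33 log2 and between 0.58 and 0.78.

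Counts of members called did depend on the processing. In untrained mice over time the count of 0 became 1 with the arrays centred on their medians (Ccl5), 2 with features at or above the median level (Nkg7 and Ccl5), and 0 to 2 with an array left out, with 2 without untrained pre replicate 1 (Ncr1 and Ccl5) or trained post replicate 3 (Nkg7 and Ccl5). Over both groups the count of 1 became 0 with no batch term, in batch 1 alone, with quantile normalization and with a trended prior, 3 with features at or above the median level (Ncr1, Gzma and Ccl5), and 0 to 3 with an array left out: 3 without untrained pre replicate 1, 2 without trained post replicate 2 (Ncr1 and Gzma) and 0 without any other. In batch 2 alone, with 1 array per group and no test, the median of the members was -0.79 log2 over time for untrained mice, -0.41 for trained mice and -0.59 over both, and in batch 1 alone it was -0.23, 0.06 and -0.17. Of all 27381 features, 185 were called in untrained mice over time and 880 over both groups, in either direction. With features at or above the median level these counts were 335 and 1088, among fewer features. Without untrained pre replicate 1 they were 147 and 866. In untrained mice centred arrays gave 192 and leaving out trained post replicate 3 gave 301. Over both groups leaving out trained post replicate 2 gave 655. The filter tests fewer genes and some alternatives use fewer arrays, but why the counts and medians changed was not tested.

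Arrays with the same replicate number gave 18 correlations of their deviations from group means, from -0.190 to 0.135, of which 2 were over 0.1. These values show no pairing by replicate number. They do not decide whether littermates, or blood of the same mice, were paired across pools in another way. With a replicate block in place of batch, 1 member was called over time in untrained mice (Ccl5) and 2 over both groups (Ncr1 and Ccl5), and no other count of members changed. Among all 27381 features, the block gave 226 calls over time in untrained mice and 971 over both groups.

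Directions changed as follows. In batch 1 alone, before training, Klrk1 was 0.028, Ncr1 0.11 and Gzma 0.23, Prf1 was 0.020 over time in untrained mice and Klrb1c 0.15 in both. In batch 2 alone Eomes was -0.0085 after training, -0.16 before it, and -0.19, -0.039 and -0.11 over time (untrained, trained and both). Also in batch 2 alone, before training, Klrd1 was -0.054 and Klrb1c 0.20, over time in trained mice Klrd1 was 0.0016, Klrb1c -0.77 and Nkg7 -0.47, and the interaction of Prf1 was 0.012. Eomes over time in untrained mice was -0.027 with quantile normalization, -0.029 with centred arrays and -0.0012 with array weights. With an array left out, values before training ran from -0.058 to 0.28 for Ccl5, -0.12 to 0.14 for Eomes, -0.30 to 0.25 for Gzma, -0.44 to 0.078 for Klrb1c, -0.30 to 0.15 for Ncr1 and -0.051 to 0.21 for Nkg7. Over time in untrained mice they ran from -0.12 to 0.14 for Eomes, -0.0065 to 0.28 for Gzmb and -0.52 to 0.041 for Prf1, and in trained mice from -0.19 to 0.36 for Klrb1c, -0.41 to 0.044 for Klrd1 and -0.079 to 0.31 for Nkg7. In both, Klrk1 ran from -0.12 to 0.040, and the interaction from -0.077 to 0.21 for Gzmb and -0.35 to 0.22 for Prf1.

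The count of all features called over time in untrained mice, 185, ranged up to 335 with features at or above the median level and was 93 with a trended prior and 9 in batch 1 alone, and with an array left out it ran from 0 (without untrained pre replicate 2 or 3) and 12 (without untrained post replicate 1) to 301 (without trained post replicate 3). In trained mice 77 became 141, 22 and 8, and with an array left out 1 (without trained pre replicate 1 or trained post replicate 3), 2 (without trained pre replicate 3) or 6 (without trained post replicate 2) to 199 (without trained pre replicate 2). Over both groups 880 became 123 in batch 1 alone and 484 to 886 with an array left out, the lowest without trained post replicate 3. For trained mice it was also 36 with centred arrays, 22 with the compared arrays only and 124 with no batch term. A fit to the compared arrays only was not run over both groups or for the interaction, which use all arrays.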
